A study of Mus musculus with 48 samples.

Results

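Receptor tyrosine kinases are single-pass membrane proteins that bind a growth factor outside the cell and phosphorylate tyrosines on themselves and on their partners inside it. Docked adaptors then pass the signal to the Ras and phosphatidylinositol 3-kinase pathways, and phosphatases, ubiquitin ligases and endocytosis end it. In pancreatic ductal adenocarcinoma the ErbB receptors, Met, Mst1r (Ron), Axl, Igf1r and Epha2 have each been studied as receptors of the tumour cells. The 10 genes described here were picked by symbol: Egfr, Erbb2 and Erbb3 of the ErbB family, Met and Mst1r of the hepatocyte growth factor receptor family, Igf1r and Insr of the insulin receptor family, Axl, Fgfr1 and Epha2. All 10 were among the 50600 genes in the count data, and 9 of them, all but Fgfr1, were among the 13889 genes that passed the filter on low counts.

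The mRNAs were measured in mPDAC, a mouse pancreatic ductal adenocarcinoma cell line whose labels give an FVB/N x C57BL6 background and an age of 8 weeks. The N6L cultures (numbers 1, 2 and 3) had been exposed for 48 h to 50 µM of N6L, a pseudopeptide antagonist of nucleolin, and the non-treated (NT) cultures (numbers 1, 2 and 4) are labelled as controls. Each culture gave a cytoplasmic library and a polysomal library from 1 lysate, cleared of nuclei and mitochondria after exposure of the cells to emetine, which makes 12 poly(A)+ RNA libraries in 4 groups of 3. Cells of 1 line were used throughout, and neither a vehicle nor a second line is among the samples analysed here.

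Summed over 4 technical replicates, the libraries held between 19519911 and 44972333 counts. Among 9 epithelial markers, the keratins were abundant (Krt18 at a mean of 3131 and Krt8 at 2823 CPM in NT cytoplasm, CPM being counts scaled to a common library size), whereas Epcam (0.151 CPM) and Cldn4 (0.0558 CPM) were close to 0. The 9 markers summed to between 7090 and 9360 CPM in NT cytoplasm and between 6522 and 7953 CPM in N6L cytoplasm. The summed fibroblast (8 genes), immune (6) and endothelial (5) markers did not exceed 2.13 CPM in any library, while the acinar and islet markers (8) reached 82.8 CPM, nearly all of it from Cela1. CPM values were scaled by the TMM method and give a gene's part of its library, not an absolute amount. In such bulk libraries, fewer cells that express a gene and less of its mRNA per cell cannot be told apart. Nothing in the labels says whether the cultures were set up independently, and p-values then measure the spread between these cultures only.

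The shared catalytic core of the family is visible in the coding sequence. The 24 bases that encode the catalytic loop of the kinase domain are shown for the 4 receptors on which the results below turn, read from GENCODE vM21 transcripts (GRCm38), with the GAC codon of the catalytic aspartate in capitals.
Mst1r: cacagaGACctggctgctaggaac
Igf1r: cacagaGACcttgctgctaggaac
Insr: caccggGACctggcagctcgaaac
Met: cacagaGACttagctgcaagaaac
The Mst1r stretch lies on the plus strand at chr9:107916896-107916919, in exon 16 of 19, and that of Igf1r on the plus strand at chr7:68212096-68212119, in exon 18 of 21. The Insr stretch lies on the minus strand at chr8:3161376-3161399, in exon 18 of 21, and that of Met on the plus strand at chr6:17562239-17562262, in exon 19 of 22. The capitalised codon was GAC in all 10 members. Mst1r and Igf1r, which belong to different families, shared 23 of the 24 bases. Mst1r and Fgfr1 shared 23 as well, and Igf1r and Fgfr1 shared 22. Mst1r and its closest relative Met shared 20, as did Igf1r and Met, while Erbb3 and Met had the fewest bases in common, 13.

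Mst1r and Igf1r were among the members that rose with N6L. The 120 bases before their RefSeq transcription starts (GRCm38.p6) are shown with GC boxes in capitals, that is GGGCGG or its complement CCGCCC, searched on both strands.
Mst1r: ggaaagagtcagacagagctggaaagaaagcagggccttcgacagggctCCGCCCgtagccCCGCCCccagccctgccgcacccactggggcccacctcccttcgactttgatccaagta
Igf1r: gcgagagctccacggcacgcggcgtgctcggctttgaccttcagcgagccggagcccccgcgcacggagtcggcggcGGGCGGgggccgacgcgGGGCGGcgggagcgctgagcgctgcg
These stretches lie on the plus strand at chr9:107906769-107906888 and chr7:67952137-67952256. The bases that follow the Mst1r start occur in a GENCODE transcript of the gene. Those that follow the Igf1r start do not, and its stretch ends upstream of the GENCODE gene start at 67952827. Each held 2 GC boxes. Of the 32851 RefSeq promoter windows of 300 bases, 35.7% held at least 1, among them the windows of Met (3 boxes), Axl (2), Epha2 (1) and Egfr (1), and the window of Erbb2 held none. RefSeq gives Mst1r another start further into the gene, and its window also held none. The letters are a description of the DNA and were not tested against the measurements.

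In NT cytoplasm, Epha2 and Axl mRNAs were far more abundant, per kilobase of exonic sequence, than those of the other members. Epha2, the receptor of ephrin-A ligands, was highest with 31.4 ± 2.77 CPM per kilobase (SD, n = 3 cultures), ahead of Axl, the receptor of Gas6, with 26.0 ± 2.24. Erbb2, the ErbB receptor without a known ligand of its own, had 3.42 ± 0.209 and Met, the receptor of hepatocyte growth factor, had 3.20 ± 0.0630. Lower levels were found for Mst1r, the receptor of macrophage-stimulating protein (1.27 ± 0.229), Igf1r (1.20 ± 0.0763), the neuregulin receptor Erbb3 (0.931 ± 0.149) and the insulin receptor gene Insr (0.782 ± 0.133). Egfr had 0.136 ± 0.0109 CPM per kilobase and ranked low among all genes, with only 5.5% of the genes tested at a lower level. The 3 cultures of neighbours in this order overlapped for Erbb2 and Met, for Mst1r and Igf1r, and for Erbb3 and Insr, and these 3 pairs changed places when the longest transcript was used as the length instead. The order was the same in NT polysomes, where Met and Mst1r, and Igf1r and Erbb3, overlapped. In N6L polysomes Mst1r (2.13 ± 0.214) stood above Met (1.15 ± 0.218) with no overlap, and Erbb3 (0.933 ± 0.136) above Igf1r (0.875 ± 0.195) with overlap. In N6L cytoplasm Insr (1.33 ± 0.139) stood above Erbb3 (1.26 ± 0.0368), again with overlap, and Epha2 and Axl overlapped as well.

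**Figure D1:**
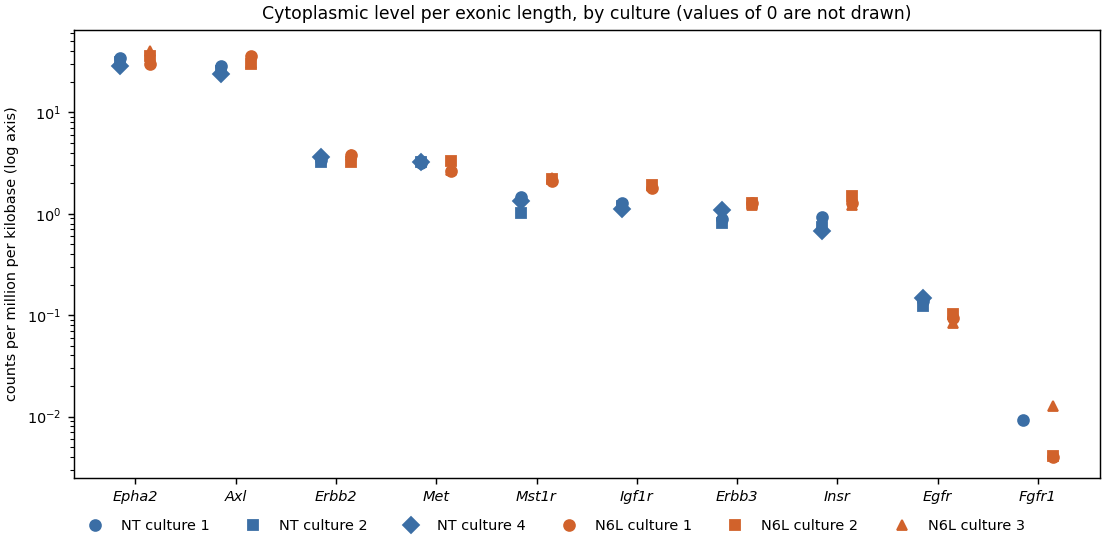
Level of each member in the cytoplasm, as TMM-scaled CPM per kilobase of exonic sequence on a log axis, with 1 point per culture (NT blue, N6L orange). Epha2 and Axl lie highest in every culture, Erbb2 and Met follow, and Egfr lies well below the rest but above Fgfr1.

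Fgfr1 was close to absent. Its 12 libraries held between 0 and 5 counts, and the count was 0 in NT cultures 2 and 4 of the cytoplasm and in N6L cultures 2 and 3 of the polysomes, which allows up to 0.142 CPM (3 counts of the library, counting error only). It was not tested.

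N6L raised 3 of the 9 receptors tested in the cytoplasm: Mst1r, Insr and Igf1r, which passed the limit of 0.05 on the false discovery rate (FDR, Benjamini-Hochberg over all genes tested, from edgeR quasi-likelihood tests). No member fell. Of all genes tested, 28.3% passed the same limit and 14.5% passed it at a higher level, so that 3 of 9 is a share near that of all genes for calls in either direction. The median log2 fold change was 0.30 for the 9 members and 0.04 for all genes, and 7 of the 9 were above 0.

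Mst1r (ENSMUSG00000032584, chr9:107906873-107920383, plus strand) had 7.30, 5.08 and 6.71 CPM in NT cultures 1, 2 and 4 and 10.6, 10.98 and 11.3 CPM in N6L cultures 1, 2 and 3. Every N6L culture lay above every NT culture. The log2 fold change was 0.78 (SE 0.18, 1.72-fold, edgeR FDR 0.00741). In the polysomes, Mst1r had 5.09, 6.36 and 6.45 CPM in the NT cultures and 9.46, 11.4 and 11.2 CPM in the N6L cultures. Again the groups did not overlap, and the log2 fold change of 0.83 (SE 0.18, edgeR FDR 0.0130) made Mst1r the 1 member of 9 past the limit there, against 9.67% of all genes in either direction and 6.01% at a higher level. Without N6L culture 2 the cytoplasmic and polysomal log2 fold changes of Mst1r were 0.74 (edgeR FDR 0.0546) and 0.79 (edgeR FDR 0.105), and without NT culture 1 the polysomal one was 0.74 (edgeR FDR 0.0809). It also missed the limit in the polysomes when only the 2 polysomal groups were fitted (0.85, edgeR FDR 0.0745).

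Igf1r (ENSMUSG00000005533, chr7:67952827-68233668, plus strand), the receptor of the insulin-like growth factors, had 21.3, 20.2 and 18.7 CPM in NT cytoplasm and 30.3, 32.4 and 31.7 CPM in N6L cytoplasm. The groups were well apart, with a log2 fold change of 0.65 (SE 0.17, 1.57-fold, edgeR FDR 0.0144). In the polysomes Igf1r had 13.2, 13.8 and 11.6 CPM in the NT cultures and 16.6, 16.5 and 10.9 CPM in the N6L cultures. N6L culture 3 lay below all NT cultures there, and the difference was not past the limit (log2 0.20, SE 0.17, edgeR FDR 0.502). Without N6L culture 2 or NT culture 4 the cytoplasmic increase missed the limit (log2 0.58, edgeR FDR 0.0888, and 0.57, edgeR FDR 0.0675).

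Insr (ENSMUSG00000005534, chr8:3122061-3279617, minus strand) went the same way, from 12.8, 10.1 and 9.36 CPM to 17.7, 20.4 and 16.7 CPM in the cytoplasm. No N6L culture reached down to the NT range, and the log2 fold change was 0.76 (SE 0.26, 1.70-fold, edgeR FDR 0.0405). In the polysomes the NT cultures had 5.41, 5.93 and 4.398 CPM and the N6L cultures 9.42, 9.13 and 4.05 CPM. As for Igf1r, N6L culture 3 was the lowest library of the 6, and the log2 difference of 0.53 (SE 0.27) was not past the limit (edgeR FDR 0.226), whereas without that culture it was 0.83 (edgeR FDR 0.0260). The cytoplasmic call of Insr was the least firm: the FDR was above the limit without any 1 of the cultures other than N6L culture 3 (log2 0.79 and 0.63 on leaving out N6L cultures 1 and 2, and 0.91, 0.72 and 0.64 on leaving out NT cultures 1, 2 and 4, edgeR FDR 0.0634, 0.173, 0.0643, 0.116 and 0.152), and with technical replicate a alone (0.76, edgeR FDR 0.0674).

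**Figure D2:**
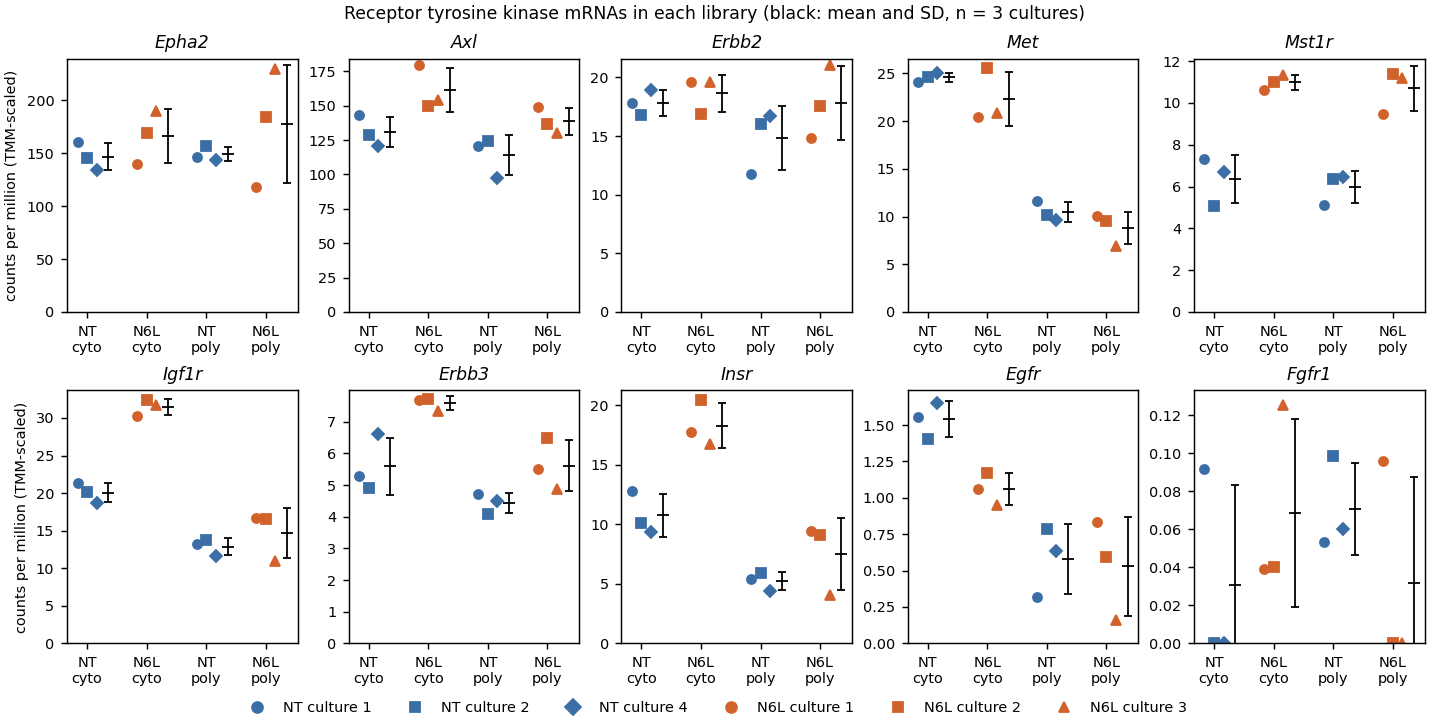
TMM-scaled CPM of the 10 receptors in each of the 12 libraries, with 1 point per culture (NT blue, N6L orange) and the mean and SD of 3 cultures in black. The cytoplasmic N6L points of Mst1r, Igf1r and Insr lie above all cytoplasmic NT points, and Fgfr1 does not exceed 0.126 CPM.

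The calls of Igf1r and Insr, which have long transcripts, depended on whether transcript length and base composition were corrected for. The longest Igf1r and Insr transcripts measure 11409 and 9355 bases with 49.4% and 46.8% GC, that of Mst1r 4722 bases with 56.6% GC, and the median over the genes tested is 3102 bases and 49.8% GC. Across all 13867 genes with both values, the log2 fold change in the cytoplasm correlated with the log2 transcript length (r = 0.432, across genes, which are not independent replicates). Over the 9 members alone r was -0.0564. With an offset per library for length and GC content, the cytoplasmic log2 fold changes of Igf1r and Insr were 0.08 and 0.20 (edgeR FDR 0.609 and 0.323), that of Mst1r 0.56 (edgeR FDR 0.0178), and those of Met and Egfr -0.65 and -1.12 (edgeR FDR 0.00273 and 0.0176). The count of members called was again 3, but only Mst1r was common to both fits. With the replicate number as a block beside the offsets, Egfr was no longer called (-0.86, edgeR FDR 0.0689), whereas Met (-0.61, edgeR FDR 0.00428) and Mst1r (0.62, edgeR FDR 0.0166) were.

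The ErbB receptors were not called in the cytoplasm. Egfr (ENSMUSG00000020122, chr11:16752203-16918158, plus strand), the epidermal growth factor receptor, had 1.56, 1.41 and 1.65 CPM in NT and 1.06, 1.17 and 0.954 CPM in N6L cytoplasm. All N6L cultures were below all NT cultures, on 27 to 58 counts a library, with a log2 fold change of -0.53 (SE 0.38, edgeR FDR 0.303). Erbb3 (ENSMUSG00000018166, chr10:128567523-128589652, minus strand), which signals mainly as a partner of Erbb2, had 5.28, 4.90 and 6.61 CPM in NT and 7.68, 7.73 and 7.33 CPM in N6L cytoplasm. The groups did not overlap, but the log2 fold change of 0.44 (SE 0.18) was short of the limit (edgeR FDR 0.0782), and it passed when the libraries were scaled by their totals alone (0.59, edgeR FDR 0.0298), a scaling that moved the median of all genes from 0.04 to 0.19. Erbb2 (ENSMUSG00000062312, chr11:98412470-98437716, plus strand) had 17.8, 16.8 and 18.9 CPM in NT and 19.6, 16.8 and 19.6 CPM in N6L cytoplasm. Its groups overlapped (log2 0.07, SE 0.18, edgeR FDR 0.801). Erbb2 shares 9 exonic bases with Mien1 on the opposite strand, and its counts are uncertain to that extent because the strand setting is not given in the sources used here.

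Axl, Epha2 and Met were not called either. Axl (ENSMUSG00000002602, chr7:25757273-25788705, minus strand) had 143, 129 and 121 CPM in NT and 180, 150 and 154 CPM in N6L cytoplasm, with no overlap (log2 0.30, SE 0.15, edgeR FDR 0.130). Epha2 (ENSMUSG00000006445, chr4:141301240-141329384, plus strand) had 160, 146 and 134 CPM in NT and 140, 169 and 190 CPM in N6L cytoplasm, and N6L culture 1 lay within the NT range (log2 0.18, SE 0.20, edgeR FDR 0.519). Met (ENSMUSG00000009376, chr6:17463800-17573980, plus strand) had 24.1, 24.6 and 25.1 CPM in NT and 20.5, 25.6 and 20.9 CPM in N6L cytoplasm, with N6L culture 2 above all NT cultures (log2 -0.14, SE 0.17, edgeR FDR 0.546). Counted over the 9 members, Mst1r, Igf1r, Insr, Erbb3 and Axl were higher and Egfr was lower in every N6L culture than in every NT culture, 6 genes in all, where 54.9% of all genes tested had cytoplasmic groups that did not overlap.

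**Figure D3:**
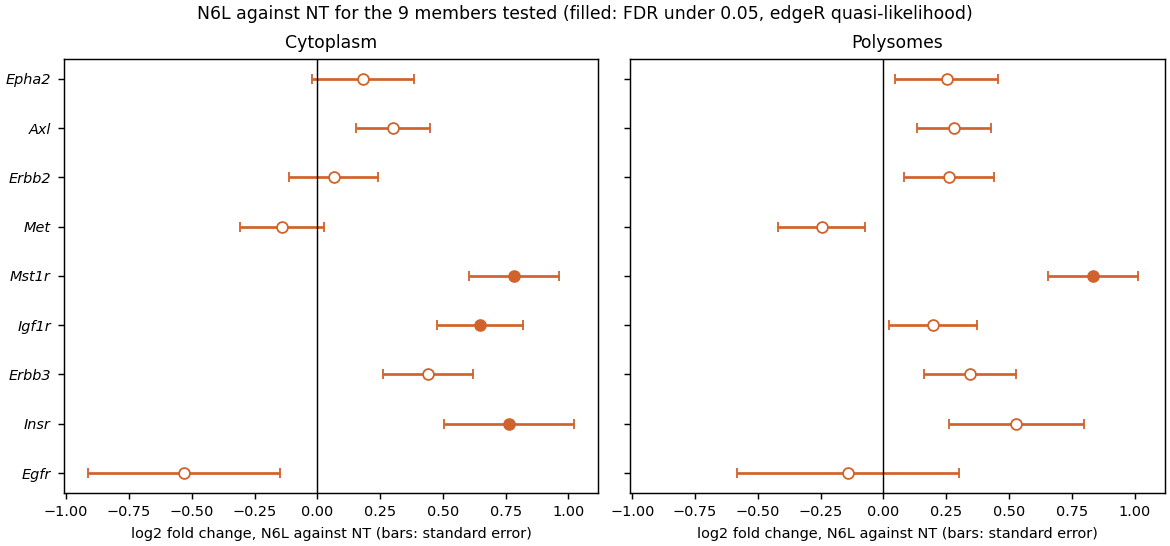
Log2 fold change of N6L against NT in the cytoplasm (left) and in the polysomes (right) for the 9 members tested, with standard errors and filled points for an FDR under 0.05. Mst1r is filled in both panels, and Igf1r and Insr in the cytoplasm only.

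The median log2 fold change in the polysomes was 0.26 for the 9 members and 0.00 for all genes. The polysomal groups of Mst1r, Erbb3 and Axl did not overlap, 3 of 9 members, against 25.6% of all genes. Erbb3 had 4.72, 4.09 and 4.49 CPM in NT and 5.50, 6.48 and 4.87 CPM in N6L polysomes (log2 0.34, SE 0.18, edgeR FDR 0.249). Axl had 121, 124 and 97.7 CPM in NT and 149, 136 and 130 CPM in N6L polysomes (log2 0.28, SE 0.15, edgeR FDR 0.240). Neither passed the limit. Epha2 had 146, 156 and 144 CPM in NT polysomes and spread from 119 CPM in N6L culture 1 through 184 CPM in culture 2 to 230 CPM in culture 3 (log2 0.25, SE 0.20, edgeR FDR 0.461). Erbb2 followed a like spread, with 11.7, 16.1 and 16.7 CPM in NT and 14.8, 17.5 and 21.1 CPM in N6L polysomes (log2 0.26, edgeR FDR 0.377). Met had 11.7, 10.2 and 9.64 CPM in NT and 10.03, 9.52 and 6.91 CPM in N6L polysomes (log2 -0.25, edgeR FDR 0.392), and Egfr 0.318, 0.786 and 0.633 CPM against 0.831, 0.593 and 0.164 CPM, the last from 4 counts (log2 -0.14, edgeR FDR 0.871). Among the N6L polysomes, culture 3 held the lowest value of Egfr, Erbb3, Met, Axl, Igf1r and Insr and the highest of Erbb2 and Epha2. Culture 1 was at an extreme as well, with the highest value of Egfr, Met, Axl, Igf1r and Insr. It also held the lowest value of Erbb2, Epha2 and Mst1r.

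The polysomal level of a receptor mRNA relative to its cytoplasmic level in the same culture, given as the log2 ratio of the CPM values, divided the members. Because each library was scaled on its own, this ratio compares a gene with the other genes and is not the fraction of its mRNA bound to polysomes. Met was among the members with the lowest ratios. Its ratio was -1.04, -1.27 and -1.37 in NT cultures 1, 2 and 4 and -1.02, -1.42 and -1.59 in N6L cultures 1, 2 and 3. In the fit, Met was lower in NT polysomes than in NT cytoplasm (log2 -1.23, SE 0.17, edgeR FDR 0.0163), the 1 member of 9 past the limit where 0.209% of all genes passed. That share depended on the fit: it was 2.02% with DESeq2 (3 members called), 1.46% with the culture as a block (1 member), 2.5% with no filter on low counts (3 members), 2.38% without N6L culture 3 (3 members) and 4.74% with the offsets for length and GC content together with the block (3 members). The NT call of Met was lost without any 1 of the NT cultures (log2 -1.32, -1.21 and -1.18 without NT cultures 1, 2 and 4, edgeR FDR 0.245, 0.270 and 0.205) and with technical replicate a alone (-1.09, edgeR FDR 0.0961).

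In the N6L cultures Met (log2 -1.34, SE 0.17, edgeR FDR 0.00427), Igf1r (-1.10, SE 0.17, edgeR FDR 0.00427) and Insr (-1.28, SE 0.26, edgeR FDR 0.00510) were lower in the polysomes than in the cytoplasm. These were 3 of 9 members, where 39% of all genes passed in either direction and 20.6% at a lower level. The Igf1r ratio was -0.69, -0.55 and -0.69 in the NT cultures and -0.86, -0.97 and -1.53 in the N6L cultures. That of Insr was -1.23, -0.76 and -1.08 in the NT cultures and -0.91, -1.16 and -2.03 in the N6L cultures. In the NT cultures neither Igf1r (log2 -0.65, SE 0.17, edgeR FDR 0.149) nor Insr (-1.04, SE 0.27, edgeR FDR 0.128) passed, and both did with DESeq2 (-0.64, FDR 0.0254, and -1.03, FDR 0.0177) or without N6L culture 3 (-0.65, edgeR FDR 0.0308, and -1.04, edgeR FDR 0.0155). With the culture as a block, which uses the shared lysate, 5 members were lower in N6L polysomes instead of 3, the additional ones being Egfr (-1.06, edgeR FDR 0.0447) and Erbb3 (-0.44, edgeR FDR 0.0264). In that fit 53.7% of all genes passed, 27.6% at a lower level, so that the count of members rose along with that of all genes.

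The ratios of the GC-rich receptors lay closer to 0. Epha2 ratios lay between -0.13 and 0.10 in the NT and between -0.24 and 0.27 in the N6L cultures. Mst1r ratios lay between -0.51 and 0.32 and between -0.17 and 0.05, those of Axl between -0.31 and -0.05 and between -0.27 and -0.14, and those of Erbb2 between -0.60 and -0.06 and between -0.40 and 0.11. Erbb3 was intermediate, from -0.55 to -0.16 and from -0.58 to -0.25. Egfr had the widest spread, from -2.07 to -0.79 and from -2.15 to -0.33, on as few as 4 counts.

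**Figure D4:**
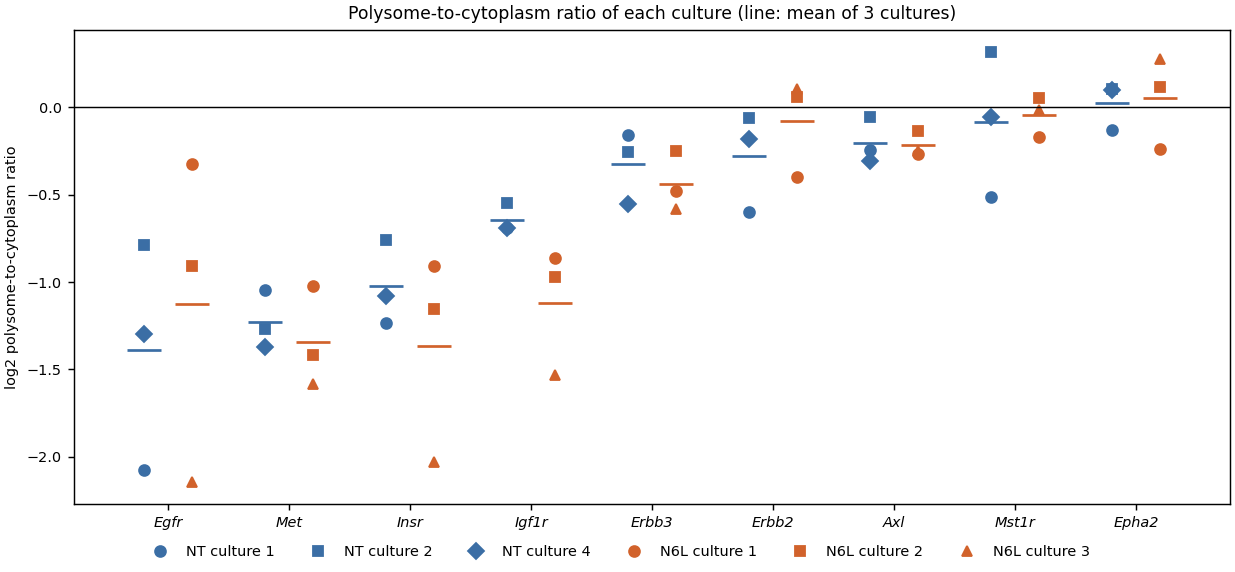
Log2 polysome-to-cytoplasm ratio of each culture for the 9 members tested, with 1 point per culture (NT blue, N6L orange) and a line at the mean of 3 cultures. Met, Insr, Igf1r, Egfr, Erbb3 and Axl lie below 0 in every culture, and the N6L ratios of Igf1r lie below all its NT ratios.

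Over the 9 members, the fitted log2 ratio followed the GC content of the longest transcript with r = 0.957 in NT and 0.935 in N6L cultures, and the log2 length with r = -0.794 and -0.860. Over all genes tested the same values were 0.405 and 0.514 for GC content and -0.361 and -0.549 for length. These are descriptions of 9 points that share their libraries, and length and GC content go together among the members. With the offset for length and GC content, Met was still lower in N6L polysomes (log2 -0.53, edgeR FDR 0.0139), and Igf1r and Insr were at -0.24 and -0.42 (edgeR FDR 0.128 and 0.0600), 1 member called instead of 3. With the culture as a block beside the offsets, Insr was called as well (-0.43, edgeR FDR 0.0208) and Igf1r was not (-0.24, edgeR FDR 0.0579). In NT cultures that fit called Met (-0.95, edgeR FDR 0.00519), Insr (-0.74, edgeR FDR 0.0179) and Igf1r (-0.41, edgeR FDR 0.0394). Whether length or GC content sets these ratios was not tested.

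**Figure D5:**
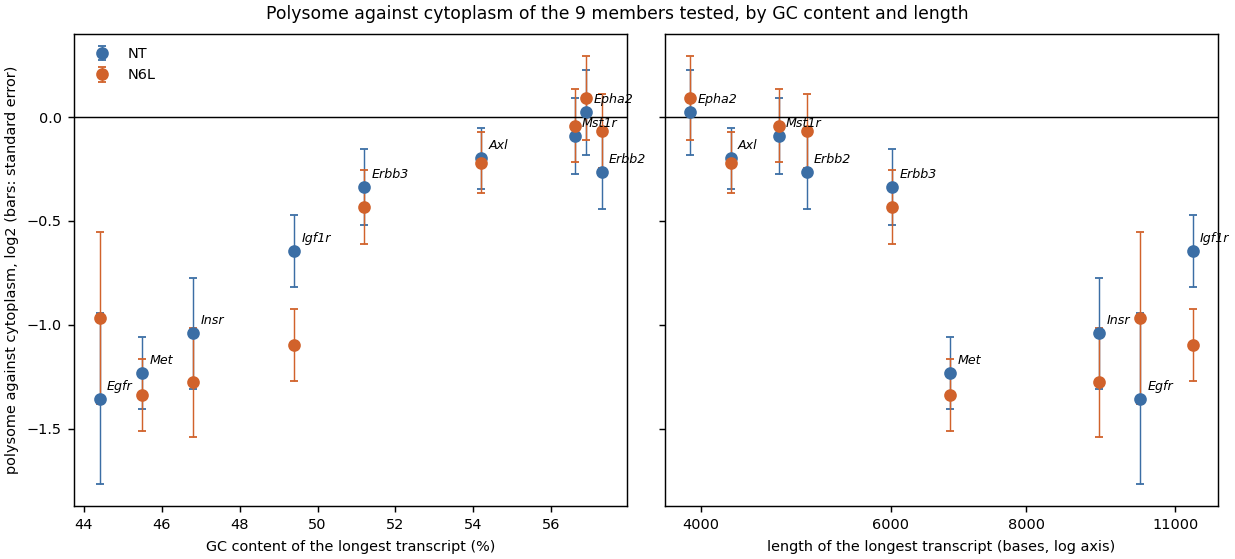
Fitted log2 difference of polysomes against cytoplasm, with standard errors, for the 9 members tested in NT (blue) and N6L (orange) cultures, against the GC content (left) and the length (right, log axis) of the longest transcript. The 4 members with the lowest GC content, Egfr, Met, Insr and Igf1r, lie lowest in both treatments.

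The translational index, that is the change of this log2 ratio from NT to N6L cultures, passed the limit for 0 of the 9 members and for 0% of all genes (edgeR, and likewise 0 genes with DESeq2), while 1074 genes had an unadjusted p under 0.05 and none of the members did. With no filter on low counts 114 genes passed, and 1 did without N6L culture 1, none of them a member. The lowest index was that of Igf1r (log2 -0.45, SE 0.24, edgeR FDR 0.555), whose 3 N6L ratios were all below its NT ratios. Non-overlapping ratios were found for 29.7% of all genes. The Igf1r index was -0.27 without N6L culture 3, and it was 0.17 with the offset for length and GC content. Insr (-0.23, SE 0.37), Met (-0.11, SE 0.24), Erbb3 (-0.10, SE 0.26) and Axl (-0.02, SE 0.21) were also below 0, and Egfr (0.39, SE 0.59), Erbb2 (0.20, SE 0.25), Epha2 (0.07, SE 0.29) and Mst1r (0.05, SE 0.25) above it.

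Among the other receptor tyrosine kinases, 22 of 48 were tested and 8 passed the limit in the cytoplasm, 7 at a higher level, with a median log2 fold change of 0.47. In the same comparison 28.3% of all genes passed, 14.5% at a higher level. Mertk, a relative of Axl, rose from 0.211 ± 0.103 to 1.02 ± 0.142 CPM (log2 2.19, edgeR FDR 0.00308). The Eph receptors Epha4, from 7.91 ± 0.390 to 16.1 ± 1.46 CPM (log2 1.02, edgeR FDR 0.00651), and Ephb6, from 2.58 ± 0.163 to 5.66 ± 0.736 CPM (log2 1.13, edgeR FDR 0.00776), rose too. In the polysomes, where 9.67% of all genes passed and 6.01% at a higher level, 4 of the 22 passed, all higher, led by Ephb6 (log2 1.40, edgeR FDR 0.00655) and Ephb3 (0.83, edgeR FDR 0.0206). Ephb3 was called in the cytoplasm too (0.65, edgeR FDR 0.0252).

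Of 29 ligands of the members, 19 were tested, and 4 rose and 2 fell in the cytoplasm, where 14.5% of all genes rose and 13.8% fell. Areg, the Egfr ligand amphiregulin, fell from 169 ± 16.1 to 103 ± 9.41 CPM (log2 -0.72, edgeR FDR 0.00453) and was also lower in the polysomes (-0.56, edgeR FDR 0.0287). Mst1, which encodes the ligand of Mst1r, fell from 0.752 ± 0.136 to 0.186 ± 0.0585 CPM (log2 -2.06, edgeR FDR 0.00750). These levels rest on few counts, and Mst1 was not called in the polysomes (-0.73, SE 0.48, edgeR FDR 0.362). Fgf1 rose from 37.8 ± 7.44 to 58.5 ± 5.27 CPM (log2 0.63, edgeR FDR 0.0239). In the polysomes Hbegf, another Egfr ligand, rose by a log2 of 0.67 (edgeR FDR 0.0202) and Efna1, the ligand of Epha2, by 0.70 (edgeR FDR 0.0224). Hbegf was called in the cytoplasm too (0.46, edgeR FDR 0.0445), and Efna1 was not (0.29, edgeR FDR 0.206). The median log2 fold change of the 19 in the cytoplasm was 0.25.

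In the main fit, adaptors and proximal effectors rose where they were called: 8 of 26 tested in the cytoplasm, with 0 lower and a median log2 fold change of 0.55. Of all genes, 28.3% were called there, 14.5% at a higher level. Crkl, an adaptor of the Crk family, rose from 21.7 ± 10.4 to 73.3 ± 4.34 CPM (log2 1.75, edgeR FDR 0.00487), Gab1, a docking protein used by Met, by 1.27 (edgeR FDR 0.0120) and Frs2, the docking protein of the FGF receptors, by 1.09 (edgeR FDR 0.0120). In the polysomes, where 6.01% of all genes rose, 3 adaptors rose: Grb7, which is bound by Erbb2 (log2 1.00, edgeR FDR 0.00413), Shc1 (0.58, edgeR FDR 0.0332) and Gab1 (1.11, edgeR FDR 0.0488). Grb7 was called in the cytoplasm too (0.63, edgeR FDR 0.0145), and Shc1 was not (0.35, edgeR FDR 0.103).

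Negative regulators were called in 11 of 27 cases in the cytoplasm, with 9 increases and 2 decreases, with a median log2 fold change of 0.32. Errfi1, which encodes the ErbB inhibitor Mig6, rose from 239 ± 59.5 to 530 ± 56.7 CPM (log2 1.15, edgeR FDR 0.00282) and in the polysomes by 0.97 (edgeR FDR 0.0132). Socs5 rose in the cytoplasm (log2 0.94, edgeR FDR 0.00722) and in the polysomes (0.76, edgeR FDR 0.0376). Socs3 also rose in both (0.85, edgeR FDR 0.0131, and 1.16, edgeR FDR 0.00717). The ubiquitin ligase gene Cblb rose in the cytoplasm (0.98, edgeR FDR 0.0114) and was not called in the polysomes (0.43, edgeR FDR 0.282). Of the 10 genes of endocytosis and sorting, Tsg101 of the ESCRT-I complex fell (log2 -0.62, edgeR FDR 0.00815) and Eps15l1, a clathrin adaptor, rose (0.43, edgeR FDR 0.0445), and the median was 0.34. Of 13 co-receptors and sheddases 3 rose and 1 fell, with a median of 0.47. The heparan sulphate proteoglycans moved in different directions, Sdc4 by a log2 of 0.80 (edgeR FDR 0.0182) and Gpc1 by -0.64 (edgeR FDR 0.0255), and the semaphorin co-receptor Nrp1 rose by 1.38 (edgeR FDR 0.0340). In the polysomes Sdc4 (1.34, edgeR FDR 0.00422) and Sdc1 (0.78, edgeR FDR 0.0201) rose. Of all genes tested 14.5% rose and 13.8% fell in the cytoplasm, and 6.01% rose and 3.66% fell in the polysomes, against which these counts stand.

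Most of these list calls, like most calls among all genes, were lost without N6L culture 2. The share of all genes called then was 9.24% in the cytoplasm and 1.04% in the polysomes. Without that culture, the numbers called in the cytoplasm were 3 of 22 other receptors (instead of 8), 1 of 18 ligands (6 of 19), 1 of 26 adaptors (8), 1 of 27 negative regulators (11), 1 of 10 genes of endocytosis (2) and 0 of 13 co-receptors and sheddases (4), and in the polysomes 1 adaptor (Grb7), 1 co-receptor (Sdc4) and no gene of the other lists. Without NT culture 1 the cytoplasmic counts were 3, 2, 5, 5, 1 and 0 in the same order (16% of all genes), without NT culture 2 they were 7, 2, 6, 4, 1 and 1 (22.4%), and without NT culture 4 they were 4, 4, 4, 6, 1 and 2 (15.5%). Of the genes named, some passed the limit under all alternatives that tested them. These were Mertk, Epha4, Ephb6, Areg, Crkl, Errfi1 and Tsg101 in the cytoplasm and Grb7 and Sdc4 in the polysomes. Mertk, at 0.211 CPM in NT cytoplasm, was too low to be tested with at least 10 counts required in every library. No named call changed sign under any alternative that tested it. With the offset for length and GC content, the cytoplasmic median of the negative regulators moved from 0.32 to -0.06, with 6 increases and 4 decreases. That of the adaptors moved from 0.55 to 0.23, with 5 increases and 1 decrease. That of the other receptors moved from 0.47 to 0.24, with 6 increases and 3 decreases. The median of the co-receptors and sheddases moved from 0.47 to 0.08, with 1 increase and 3 decreases, that of the genes of endocytosis from 0.34 to -0.0004, with 0 increases and 1 decrease, and that of the ligands from 0.25 to 0.17, with 3 increases and 3 decreases. The same offsets moved the median of all genes from 0.04 to -0.04.

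The genes whose log2 CPM followed each called member most closely over the 12 libraries are given as a description. For Igf1r they were Zfhx2 (r = 0.994), Il6st (0.988), which encodes the shared interleukin-6 receptor subunit gp130, and Insr (0.982). For Insr they were Asph (r = 0.986), Crim1 (0.985) and Tmem161b (0.983), and for Mst1r Peli3 (r = 0.974), Adamts7 (0.973) and Parp12 (0.970). The 12 libraries include both fractions of each culture, so that these values reflect fraction and treatment together.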

How the data were processed

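RNA from the cytoplasm and from pooled polysomal fractions of 6 mPDAC cultures was sequenced as stranded poly(A)+ libraries. Per the labels, reads were demultiplexed with bcl2fastq 2.18.0.12, aligned with STAR and counted per gene with HTSeq 0.5.3 on mm10. The deposited values are unnormalized raw counts, in 48 sets that make up 12 libraries of 4 technical replicates each. Which annotation and strand setting were used, and how reads with several alignments were handled, was not given in the sources read here. GENCODE vM21 gave symbols, coordinates, lengths and GC content for 50376 of 50600 genes.

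Technical replicates were summed after a chi-square test between them gave 1.02 to 1.04 per degree of freedom, where counting error alone gives about 1. Title and description name different cultures for 3 of those from N6L culture 2 cytoplasm, and they were kept there but also left out as an alternative. Low counts were removed with filterByExpr, and the TMM-scaled rest was fitted in edgeR 4.0.16 (R 4.3.3, quasi-likelihood, 4 group means, no block), with Benjamini-Hochberg adjustment over 13889 genes and a limit of 0.05. DESeq2 1.42.0 was the alternative tool. Ratios per culture are differences of log2 CPM with a prior count of 2. The fit was tested on simulated counts. The common biological coefficient of variation was 0.197. Both fractions of a culture come from 1 lysate and are therefore paired. The correlation of their deviations from group means ran from 0.364 to 0.645 over the NT and from 0.0368 to 0.230 over the N6L cultures.

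The genes named are all 10 members and, from each further list, up to 3 with the smallest FDR past the limit in the cytoplasm and up to 2 in the polysomes. Likeness was the Pearson correlation over the 12 libraries for the 3 members with the smallest cytoplasmic FDR. The members and lists were chosen with earlier results of these data known. Promoters were taken from RefSeq for 7 members, and Erbb3, Insr and Fgfr1 had no entry. The alternatives were other scalings, filters, subsets, blocks and offsets for length and GC content, and running them on the further lists was added after the data had been seen.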

Additional observations from a re-analysis of the deposited data

How the results depend on the processing

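Depth limits Egfr and Fgfr1 most, which had as few as 4 and 0 counts in a library. The number of members called in the cytoplasm was between 0 and 3 when single cultures (both libraries) were left out, 0 without N6L culture 2 and 1 (Mst1r) without NT culture 4. In the polysomes it was between 0 and 2, 0 with only the groups compared in the fit, and 2 (Insr and Mst1r) with the offsets for transcript length and GC content, without or with the block. For polysomes against cytoplasm it was between 0 and 3 in NT cultures with single cultures left out, 3 with no filter, 3 with DESeq2, 0 with technical replicate a alone, 2 with only the groups compared and 3 with offsets and block, and in N6L cultures it was 5 with the replicate block and 1 with the offsets (2 with offsets and block). It was 0 for the index under every alternative run. The cause of these changes was not tested. Where only a number is shared across treatments, as for N6L against NT within a fraction, same-numbered cultures deviated together by r of 0.228 and 0.0455 in the cytoplasm and 0.296 and 0.00760 in the polysomes, and the replicate number as a block called Erbb3 in addition (log2 0.58, FDR 0.0283), 4 members instead of 3. For polysomes against cytoplasm the culture as a block added Egfr and Erbb3 in N6L cultures. With the offsets, the block removed Egfr from the cytoplasmic calls (3 members to 2) and added Insr to the ratio calls in N6L cultures (1 to 2) and Igf1r and Insr to those in NT cultures (1 to 3). No other call of a member changed with the block. Of the fold changes of single members under the alternatives, 654 kept their direction and their side of the limit, 22 passed it, 23 no longer did and 52 changed sign, all of these not called in either setting. Scaled by totals alone, log2 values of the other sign were 0.005 for Met in the cytoplasm, -0.0531 and -0.0565 for the Epha2 ratios in NT and N6L cultures, and -0.0034 and -0.0075 for the Epha2 and Mst1r indices. With the replicate block they were -0.0317 for Epha2 in the cytoplasm and 0.0758 for Egfr in the polysomes. With technical replicate a alone they were 0.49 for Egfr in the polysomes, -0.0249 for the Epha2 ratio in NT and 0.0689 for the Mst1r ratio in N6L cultures, and 0.0116 for the Axl index. With the offsets, and then with offsets and block, they were -0.18 and -0.15 for Erbb2 in the cytoplasm, 0.0166 and 0.0127 for Erbb2, -0.0418 and -0.0549 for Epha2 and 0.0144 and 0.0149 for Mst1r as ratios in N6L cultures, and as indices 0.23 and 0.22 for Erbb3, 0.42 and 0.42 for Met, 0.0227 and 0.0242 for Axl, 0.17 and 0.16 for Igf1r, 0.33 and 0.31 for Insr and -0.0413 and -0.0565 for Epha2. The offsets alone gave -0.0005 for the Epha2 ratio in NT and 0.0126 for the Egfr ratio in N6L cultures, and with the block -0.0954 for Epha2 in the cytoplasm, 0.0787 for Egfr and -0.14 for Epha2 in the polysomes. With single cultures left out, signs changed within -0.62 to 0.25 for Egfr in the polysomes, -0.17 to 0.0842 for Erbb2, -0.0305 to 0.20 for Epha2 and -0.0697 to 0.0172 for Mst1r as ratios in N6L cultures, -0.041 to 0.10 for Epha2 and -0.27 to 0.12 for Mst1r in NT cultures, and for the indices -0.0938 to 0.71 for Egfr, -0.0494 to 0.0539 for Axl, -0.45 to 0.0023 for Insr, -0.0528 to 0.18 for Epha2 and -0.16 to 0.23 for Mst1r. With the longest transcript as length, the NT cytoplasmic levels per kilobase of Egfr, Met, Axl, Igf1r, Insr and Epha2 were 0.151, 3.61, 30.7, 1.76, 1.15 and 37.5 CPM.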
